A study of Mus musculus with 2 samples.

Results

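The 10 genes described here write, read or erase the RNA mark N6-methyladenosine (m6A), and their levels were read in Drosha knockout mouse embryonic stem (ES) cells. They were chosen by name: the methyltransferase subunits Mettl3, Mettl14, Wtap and Zc3h13, the YTH readers Ythdf1, Ythdf2, Ythdf3 and Ythdc1, and the demethylases Alkbh5 and Fto. Each of the 10 names matched 1 row among the 43629 genes of both count files. The study sequenced poly-A RNA of 2 libraries, replicates A and B of 1 group. These were blastocyst-derived ES cells of the 129/Ola background, Drosha knockout, untreated, grown in serum plus LIF, at passage 7, and the series names a paired CRISPR/Cas9 approach as the source of the knockout. The titles number the cells 1 and 2 and the source names are identical, so whether A and B are separate clones or cultures is not given, and the spread between them may be technical. Both titles also carry the tag d5, which is not interpreted here. Cells with intact Drosha were not analysed here, so the values below are levels in knockout cells and no change from another genotype.

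N6-methyladenosine is an internal methyl mark on messenger RNA. METTL3 carries the catalytic activity and METTL14 holds the RNA substrate in a heterodimer with it, WTAP anchors the pair in nuclear speckles, and ZC3H13 helps to keep the complex in the nucleus. Proteins with a YTH domain bind the mark: the cytoplasmic YTHDF proteins act on translation and decay of marked mRNAs, and nuclear YTHDC1 acts on splicing and export. ALKBH5 and FTO can remove the methyl group. In mouse ES cells the mark is known for its part in the turnover of pluripotency transcripts, and METTL3 has been reported to mark primary microRNAs for DGCR8, the partner of Drosha.

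The files held 29264632 counts for A and 42322129 for B, and 13949 genes reached 1 CPM (reads of a gene relative to all counts of its library, scaled by TMM) in both. A count of 0 allows up to 0.102 CPM in A, the level of 3 counts, which is far under every value of the 10 genes; such limits and the intervals below cover counting error only. The labelled cell type was checked against its markers, of which 8 of 8, Pou5f1, Sox2 and Nanog among them, reached 1 CPM and summed to 6719 CPM in A and 6821 in B. Markers of feeder fibroblasts reached 1 CPM in 3 of 8 and summed to 61.4 and 56.1 CPM. Those of primitive endoderm reached 1 CPM in 2 of 5 (sums of 9.24 and 7.37 CPM), of trophectoderm in 1 of 4 (7.74 and 6.92) and of mesoderm in 0 of 4 (2.15 and 1.75), and no marker of these lists had 0 reads in either library. Drosha itself gave 4865 reads in library A and 7023 in library B (166 ± 0.378 CPM, SD, n = 2), a count over the whole gene that does not check the knockout label.

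All 10 members were expressed. In the comparison of the libraries 0 of the 10 were called, a share near the 2.29% called among all genes tested. Each reached 1 CPM in both libraries, against 56.2% of the 24816 genes with a read. Their mean levels ran from 43.8 CPM for Mettl3 to 162 CPM for Ythdf1, a 3.70-fold range, with a median of 109 ± 0.672 CPM (SD of the medians of A and B). Over the 12458 protein-coding genes at 1 CPM or more the median was 29.4 CPM. Together the 10 genes took 0.102% of all counts. In such bulk samples fewer cells that express a gene and less of its RNA per cell cannot be told apart. Reads of a gene grow with its length, so genes are compared with each other below as TPM (reads per length, relative to the sum over all genes), the length being that of all annotated exons together. For the members, values with the longest transcript as length stand beside them, because for some of these genes the exons of all annotated transcripts cover far more bases than any 1 transcript. The longest transcript is that of any type and need not code for protein. On the first scale the median of the 10 was 39.3 ± 0.230 TPM, against 16.9 TPM over expressed protein-coding genes.

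**Figure D1:**
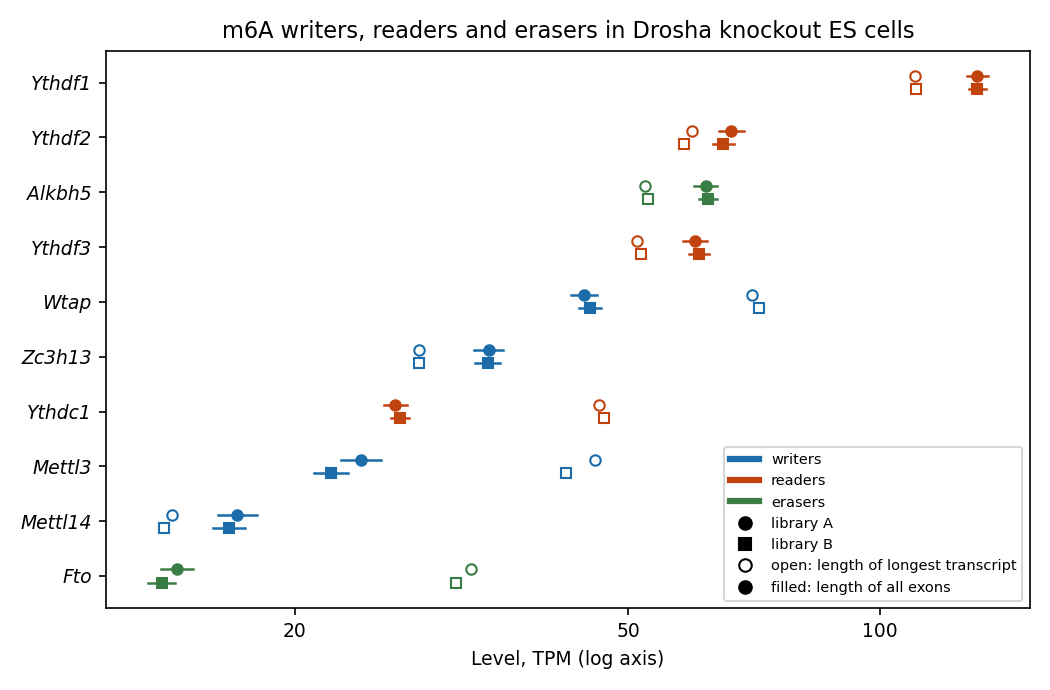
Level of each of the 10 genes in TPM on a log axis. Circles are library A and squares library B, filled with the summed length of all exons (lines: 95% exact Poisson interval of the count) and open with the length of the longest transcript. Ythdf1 is highest on both scales, and Fto, Mettl3, Ythdc1 and Wtap lie farther right with the longest transcript.

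The catalytic pair had similar read counts at the low end of the 10 genes. Mettl3 (ENSMUSG00000022160, chromosome 14, 52294841 to 52305128, minus strand; positions are of GRCm38) gave 1331 reads in library A and 1786 in library B, or 45.4 and 42.3 CPM. Mettl14 (ENSMUSG00000028114, chromosome 3, 123368297 to 123386108, minus strand), its partner without catalytic activity, had 1384 and 1969 reads, or 47.2 and 46.6 CPM. In CPM both libraries of Mettl14 lay above both of Mettl3, and the count of Mettl3 was 0.962 times that of Mettl14 in A and 0.907 times in B. Per length the order was the reverse: Mettl3 had 23.1 ± 1.34 TPM and Mettl14 16.9 ± 0.284 TPM with all exons as length, and 43.9 ± 2.50 and 14.1 ± 0.220 TPM with the longest transcript. The ratio of Mettl3 to Mettl14 was therefore 1.37 ± 0.0565 on the first scale and 3.11 ± 0.129 on the second. Mettl3 has 15 annotated transcripts, whose exons cover 5076 bases against 2159 in the longest one, while the exons of Mettl14 cover 7419 bases against 7197.

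Wtap and Zc3h13 were higher than Mettl14 on both scales; with the median length of the protein-coding transcripts as length Zc3h13 (17.7 ± 0.0196 TPM) and Mettl14 (18.4 ± 0.261 TPM) were not separated. Wtap (ENSMUSG00000060475, chromosome 17, 12966796 to 12994169, minus strand), which binds the catalytic pair, gave 3024 reads in library A and 4478 in library B, or 103 and 106 CPM. It led the writers per length, with 44.7 ± 0.512 TPM by all exons and 70.9 ± 0.902 TPM by the longest transcript. The ratio of Wtap to Mettl3 was 1.85 in A and 2.04 in B by all exons. Zc3h13 (ENSMUSG00000022000, chromosome 14, 75284373 to 75344426, plus strand), a zinc finger subunit tied to WTAP, had 2338 and 3399 reads, or 79.7 and 80.5 CPM. Its level was 34.0 ± 0.0525 TPM by all exons, 0.762 ± 0.00992 times that of Wtap, and 28.2 ± 0.00845 TPM by the longest transcript. Zc3h13 thus lay above Mettl3 on the first scale and below it on the second.

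The readers had the highest median of the 3 roles, 63.1 ± 0.290 TPM by all exons against 28.5 ± 0.697 for the writers and 38.1 ± 0.0577 for the erasers. By the longest transcript these medians were 55.2 ± 0.202, 36.0 ± 1.254 and 42.2 ± 0.293 TPM. Role medians were not taken with the median length of the protein-coding transcripts. Single genes crossed this order: by all exons the reader Ythdc1 (26.5 TPM) lay below Wtap (44.7), Zc3h13 (34.0) and Alkbh5 (62.1). By the longest transcript Wtap (70.9 TPM) lay above every reader but Ythdf1. Ythdf1 (ENSMUSG00000038848, chromosome 2, 180904377 to 180920949, minus strand), a reader reported to promote translation, gave 4734 reads in library A and 6896 in library B, or 161 and 163 CPM. At 131 ± 0.0182 TPM by all exons it stood at the 92.2nd percentile of expressed protein-coding genes. Ythdf2 (ENSMUSG00000040025, chromosome 4, 132184912 to 132212303, minus strand), which recruits the CCR4-NOT deadenylase to marked mRNAs, had 3318 and 4728 reads, or 113 and 112 CPM, and 65.7 ± 1.03 TPM. Ythdf3 (ENSMUSG00000047213, chromosome 3, 16183212 to 16217037, plus strand), reported to act with both paralogs, had 3524 and 5189 reads, or 120.1 and 123 CPM, and 60.5 ± 0.452 TPM. Of the summed TPM of the 3 paralogs, Ythdf1 took 50.8% in A and 51.0% in B, Ythdf2 25.8 and 25.3%, and Ythdf3 23.4 and 23.7%. The shares with the longest transcript as length were 49.96% for Ythdf1, 26.7% for Ythdf2 and 23.3% for Ythdf3 (means of A and B). With the median length of the protein-coding transcripts, which for Ythdf2 is 955 bases against 4129 for its longest transcript, Ythdf2 led instead with 55.1%. The coding sequence in the longest coding transcript of Ythdf2 has 1737 bases, more than this median length. The 55.1% therefore rests on a length too short to hold that sequence. Ythdf2 was 1.10 times Ythdf3 in A and 1.07 times in B by all exons, and in read counts it was 0.942 and 0.911 times Ythdf3.

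The coding sequences of the 3 paralogs share only short identical stretches, which bears on how their reads can be assigned. The longest run shared by each pair is shown here, 5′ to 3′ on the coding strand, read from the GENCODE M21 transcripts; capitals are not used because every letter of a run is identical in both genes. It was 22 bases for Ythdf1 and Ythdf2 (chr2:180911610-180911631 and chr4:132205103-132205124) and 17 bases for each of the other pairs (chr2:180911141-180911157 with chr3:16204954-16204970, and chr4:132205011-132205027 with chr3:16204514-16204530).
Ythdf1 and Ythdf2: attgctagcaagcctgcaaaac
Ythdf1 and Ythdf3: aagagctattctgagga
Ythdf2 and Ythdf3: atattggaacttgggat
No window of 50 bases of the longest coding transcript of Ythdf1 or Ythdf3 occurred in a transcript of any other annotated gene.

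Nuclear Ythdc1 (ENSMUSG00000035851, chromosome 5, 86804221 to 86836659, plus strand) gave 3933 reads in library A and 5804 in library B, or 134 and 137 CPM, the third highest count of the 10. Per length it had 26.5 ± 0.240 TPM by all exons, since its 9 annotated transcripts together cover 13651 bases. With the longest transcript of 6313 bases it had 46.5 ± 0.478 TPM. Ythdc1 was thus 0.103 ± 0.00117 times the sum of the 3 Ythdf genes on the first scale and 0.211 ± 0.00243 times on the second. The transcript of 6313 bases is not a protein-coding one, and the longest that is has 3269 bases. With the median length of the protein-coding transcripts, 3222 bases, Ythdc1 had 57.4 ± 0.671 TPM, above the 33.6 ± 0.340 TPM of Ythdf3. Its ratio to the Ythdf sum was then 0.197 ± 0.00332. The remaining YTH gene of the mouse, Ythdc2, a reader with a helicase domain known from the germline, had 9.88 ± 0.147 TPM by all exons and 9.85 ± 0.134 by the longest transcript (968 reads in A and 1381 in B); it was singled out after its value was seen.

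The demethylases differed in level. Alkbh5 (ENSMUSG00000042650, chromosome 11, 60536381 to 60558512, plus strand) gave 4047 reads in library A and 5938 in library B, or 138 and 141 CPM. Fto (ENSMUSG00000055932, chromosome 8, 91313525 to 91668439, plus strand), which also acts on the cap-adjacent mark m6Am, had 2060 and 2877 reads, or 70.2 and 68.1 CPM. Alkbh5 was higher in both libraries, 1.96 times Fto in A and 2.06 times in B by read counts. By all exons Alkbh5 had 62.1 ± 0.309 TPM and Fto 14.2 ± 0.424 TPM, a ratio of 4.38 ± 0.153, and by the longest transcript 52.6 ± 0.327 and 31.8 ± 0.912 TPM, a ratio of 1.65 ± 0.0577. The exons annotated for Fto cover 13031 bases and its longest transcript 4707, so Alkbh5 was above Fto on each scale but by an amount that the length sets.

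In the order of levels by all exons, Ythdf1 came first, followed by Ythdf2, Alkbh5, Ythdf3, Wtap, Zc3h13, Ythdc1, Mettl3, Mettl14 and Fto. Each of the 10 held the same rank in A and in B. Of the 9 pairs of neighbours, 7 were separated, meaning that their 95% exact Poisson intervals did not overlap in either library. Ythdf2 and Alkbh5 were not separated, and neither were Alkbh5 and Ythdf3. With the longest transcript, Wtap stood second, Fto eighth and Mettl14 was last, and 38 of the 45 pairs of genes kept their order. With the median coding transcript as a further length 29 of 45 pairs had 1 order on all 3 scales. That length is 955 bases for Ythdf2 and 647.5 for Mettl3, below the 4129 and 2025 bases of their longest coding transcripts. The highest gene was 9.22 times the lowest by all exons and 7.82 times by the longest transcript.

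Parts of the sequence of 6 members also occur in other annotated genes, and the shared part was largest for Ythdc1, Mettl3, Wtap and Ythdf2. The 3′ end of Mettl3 overlaps that of Tox4, an HMG-box gene on the opposite strand, over 933 exon bases between 52294841 and 52296186 on chromosome 14. Tox4 gave 2533 reads in library A and 3720 in library B, or 86.3 and 88.1 CPM. The library protocol was stranded, but no source used here says which strand setting the counter had, and the part of the overlap in the counts of Mettl3 was not tested. Of the windows of 50 bases in the longest coding transcript of Mettl3, 13.8% lie in that overlap. Wtap shares 9.02% of its windows with the processed pseudogenes Gm14292, Gm7381 and Gm9068. Gm14292 (chromosome 2, 179177425 to 179177880) gave 490 reads in library A and 732 in library B, equal to 16.2 and 16.3% of the reads of Wtap, and Gm7381 had 1 and 0. Ythdf2 shares 8.55% of its windows with the processed pseudogenes Gm6823 and Gm8401 on the X chromosome, which had 3 and 0 reads in A and 0 and 2 in B. Ythdc1 shares 18.2% with the lincRNA Gm43055 on its own strand, which is not among the counted genes. Fto shares 2.15% with the antisense RNA 4831440D22Rik, and Alkbh5 0.334% with transcripts of 541 other genes. Mettl14, Zc3h13, Ythdf1 and Ythdf3 shared no window. The part of the pseudogenes and of Gm43055 in the levels of Wtap, Ythdf2 and Ythdc1 was not tested.

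**Figure D2:**
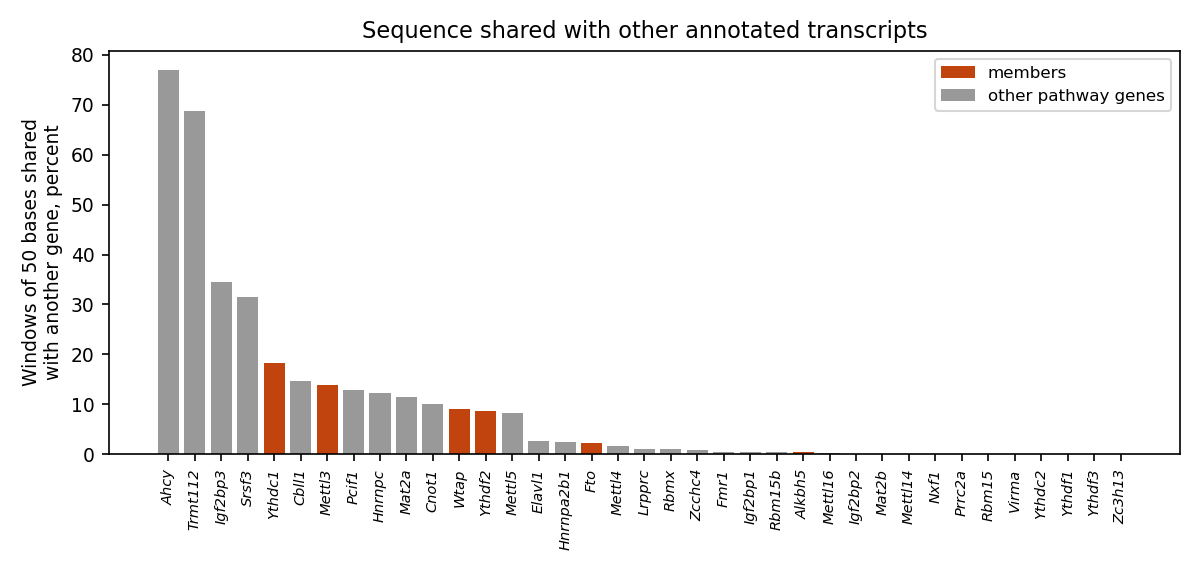
Share of the windows of 50 bases in the longest coding transcript of each gene that also occur, on either strand, in a transcript of another annotated gene. Bars of the 10 members are red and those of the other pathway genes grey; among the members Ythdc1 (18.2%) and Mettl3 (13.8%) are highest.

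The upstream sequences of the members are rich in CpG. RefSeq promoter windows (GRCm38.p6) were found for 8 of the 10 genes, Mettl14 and Ythdf3 being the others, and the 250 bases before each start were read, in 11 windows in all since some genes have several starts. Their GC content ran from 50.4 to 80.0% with a median of 63.2%, against a median of 52.4% over 32851 windows. The observed over expected number of CpG ran from 0.768 to 1.21, against a median of 0.373. A gene was counted as holding a motif where any of its windows held it on either strand, and the same count was made over all 27025 genes of the table. These genes and windows include genes not expressed here. No value was taken among expressed genes alone, so none of these contrasts can be called particular to the members. A GC box (GGGCGG) occurred upstream of 6 of the 8 members and of 35.4% of all genes (9 of the 11 windows, against 32.7% of all windows), and a CCAAT box (CCAAT) upstream of 3 and of 37.5% (4 of the 11 windows, against 33.8%). Windows of Wtap (12992540 to 12992789 and 12992544 to 12992793) overlap, as do those of Zc3h13 (75284116 to 75284365 and 75284123 to 75284372). Overlapping windows hold the same motif copies, so the counts of windows are not independent. An E-box (CACGTG) occurred upstream of Ythdf1 (6.86% of genes) and an ETS core (CCGGAAG) upstream of Zc3h13 (7.83%). The TATA box (TATAAA, 14.3%), the NRF1 core (GCGCATGC, 2.56%) and the YY1 core (AAGATGGC, 1.83%) were in none of the 8. Fto and Mettl3 held none of these 7 motifs. The windows of the highest gene, of the catalytic subunit and of the lowest gene by all exons are shown 5′ to 3′ on the strand of the gene, with motif matches in capitals (chr2:180920937-180921186, minus; chr14:52305125-52305374, minus; chr8:91313275-91313524, plus).
Ythdf1: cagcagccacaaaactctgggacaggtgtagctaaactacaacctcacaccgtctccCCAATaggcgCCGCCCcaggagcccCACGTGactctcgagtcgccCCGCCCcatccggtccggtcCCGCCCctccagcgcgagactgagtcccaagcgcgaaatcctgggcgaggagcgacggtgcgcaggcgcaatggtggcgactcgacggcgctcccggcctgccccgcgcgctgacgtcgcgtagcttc
Mettl3: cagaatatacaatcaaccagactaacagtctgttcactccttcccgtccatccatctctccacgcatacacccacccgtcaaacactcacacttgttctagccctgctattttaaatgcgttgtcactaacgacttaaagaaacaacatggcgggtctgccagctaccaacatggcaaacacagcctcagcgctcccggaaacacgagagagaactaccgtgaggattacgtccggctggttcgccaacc
Fto: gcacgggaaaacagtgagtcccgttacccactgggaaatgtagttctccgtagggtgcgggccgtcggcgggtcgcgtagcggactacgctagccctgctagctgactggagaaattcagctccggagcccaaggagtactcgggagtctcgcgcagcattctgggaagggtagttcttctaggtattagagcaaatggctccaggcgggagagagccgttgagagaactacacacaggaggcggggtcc
In the first, the capitals mark 1 CCAAT box, 1 E-box and 3 GC boxes. Such a match describes the letters of the window and does not show a bound factor.

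The 2 libraries were then compared gene by gene to see how far the members vary between replicates. With 1 library on each side no replicate error can be estimated within a side. The test (exact binomial, two-sided, Benjamini-Hochberg adjusted over the 18198 genes of at least 10 reads) compares these libraries on counting error alone. It called 0 of the 10 members at an adjusted p under 0.05, where 2.29% of all tested genes were called. At an unadjusted p under 0.05 it also named 0 of 10, against 12.4% of all genes. Of the 3788 genes with 3117 to 11630 reads, the range of the members, 104 were called and 702 had an unadjusted p under 0.05 in this exact binomial test. With a coefficient of variation of 0.1 assumed between replicates, the exact test of edgeR called 0 of 10, but it called 1 gene of all 18198 (0.0055%), so this count says nothing about the members. With both libraries taken as 1 group, the coefficient of variation between them beyond counting error was 2.25% over the genes tested, smaller than the variation assumed for edgeR. The members had a median log2 ratio of B over A of 0.016 and a median absolute ratio of 0.031. Over the 3788 genes in the same range of reads these medians were -0.0010 and 0.038.

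Mettl3 had the ratio farthest from 0. Its log2 ratio of B over A was -0.10 with a 95% counting interval from -0.20 to 0.0027, and 45.4 CPM in A stood against 42.3 in B. Its exact binomial test gave p = 0.056, and 0.42 after Benjamini-Hochberg adjustment. It was the 1 member outside the 5th to 95th percentile of the 3788 genes, which ran from -0.099 to 0.092. Fto followed at -0.043 (interval -0.13 to 0.039) and Wtap at 0.041 (-0.025 to 0.11). The other 7 lay between -0.017 (Mettl14) and 0.036 (Ythdc1), and every interval held 0. Across genes of at least 100 reads the ratio was lower at higher GC content: of 5 bins of genes by GC content, the poorest in GC had a median of 0.039 and the richest -0.055. The members of lowest GC content (of the longest transcript) are Ythdc1 (37.6%), Ythdf3 (38.4%) and Wtap (39.6%), and with this trend removed their log2 ratios went from 0.036, 0.033 and 0.041 to -0.011, -0.015 and -0.0039. That of Mettl3 (49.3% GC) went to -0.11, where the exact binomial p was 0.038 before adjustment and 0.52 after it.

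**Figure D3:**
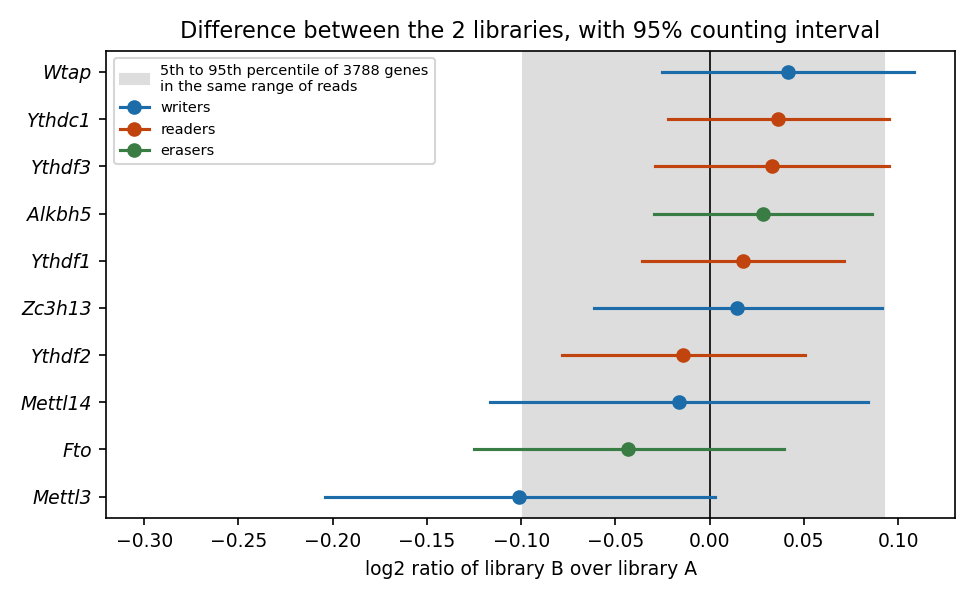
Log2 ratio of library B over library A for each of the 10 genes, with its 95% exact counting interval; colours give the role. The grey band is the 5th to 95th percentile (-0.099 to 0.092) of 3788 genes with a like number of reads, and only the point of Mettl3 lies outside it.

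The rest of the m6A pathway was expressed as well: 27 of 27 further genes were at 1 CPM or more in A and in B, and their median was 36.5 ± 0.857 TPM by all exons and 45.5 ± 0.281 by the longest transcript. By the longest transcript each of these genes had between 0.810 and 1.66 times its value by all exons, which is the scale used for them unless another is named. The list held 4 other subunits of the writer complex. Virma, the large scaffold, had 29.6 ± 0.273 TPM and the ubiquitin ligase Cbll1 25.03 ± 0.102. The RNA-binding adaptors Rbm15b and Rbm15 had 23.3 ± 0.550 and 14.4 ± 0.240 TPM. Their median of 24.2 ± 0.326 TPM stood beside 28.5 ± 0.697 for Mettl3, Mettl14, Wtap and Zc3h13, and by the longest transcript 19.7 ± 0.240 stood beside 36.0 ± 1.254.

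Of the 6 genes of other RNA methyltransferases, Mettl5, which marks 18S ribosomal RNA, was highest at 48.1 ± 0.357 TPM. Mettl16, which marks U6 snRNA and Mat2a mRNA, had 23.6 ± 0.149 TPM, above the 23.1 ± 1.34 TPM of Mettl3 by less than the SD of the latter. By the longest transcript the order was the reverse, with 20.97 ± 0.159 TPM for Mettl16 and 43.9 ± 2.50 for Mettl3. With the median length of the protein-coding transcripts Mettl16 (80.2 ± 0.720 TPM) lay above Mettl5 (61.8 ± 0.295 TPM), so the lead of Mettl5 depends on the length used. Trmt112, the activator of Mettl5, had 18.9 ± 0.584 TPM and Mettl4, an enzyme of U2 snRNA, was lowest at 7.43 ± 0.164.

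The 11 other readers spanned a wider range than the YTH members, from 5.16 ± 0.359 TPM for Rbmx to 562 ± 18.4 for Hnrnpa2b1. Hnrnpa2b1, a nuclear protein reported to link m6A to primary microRNA processing, gave 39501 reads in library A and 60282 in library B. Its TPM was above that of each of the 10 members, and by the longest transcript it was 823 ± 28.0. That transcript has 3645 bases and the longest protein-coding one 1728. Hnrnpc, which binds sites exposed by the mark, had 412 ± 4.64 TPM and Prrc2a, a large cytoplasmic reader, 173 ± 6.86. Of the reader partners, the splicing factor Srsf3 had 157 ± 1.34 TPM, the export receptor Nxf1 131 ± 6.34 and Cnot1, the scaffold of the deadenylase that YTHDF2 recruits, 65.1 ± 0.0877. By the longest transcript Srsf3 had 251 ± 2.45 TPM, Nxf1 117 ± 5.48 and Cnot1 108 ± 0.280. Among genes of the methyl donor, Mat2a, which makes S-adenosylmethionine, had 267 ± 1.39 TPM, its regulatory partner Mat2b 62.9 ± 0.773 and Ahcy, which clears the by-product, 8.60 ± 0.0676. By the longest transcript Mat2a had 287 ± 1.85 TPM, Mat2b 103 ± 1.14 and Ahcy 7.68 ± 0.0700. Ahcy shares 77.0% of its windows of 50 bases with other annotated genes, and the part this plays in its level was not tested. Dgcr8, the Microprocessor partner of Drosha, had 83.8 ± 0.717 TPM and Drosha 74.7 ± 0.488, both above every writer by all exons. By the longest transcript they had 121 ± 1.19 and 78.6 ± 0.416 TPM, above the 70.9 ± 0.902 TPM of Wtap, the highest writer on that scale. Dgcr8 shares 26.3% of its windows with other annotated genes, and the part this plays in its level was not tested. With the median length of the protein-coding transcripts Dgcr8 had 129 ± 1.45 TPM and Drosha 49.8 ± 0.193. There Drosha lay below Wtap (109 ± 1.53 TPM) and Mettl3 (92.2 ± 5.12 TPM), so its place above the writers depends on the length used. That median length is 1312.5 bases for Wtap and 647.5 for Mettl3, against 3187 and 2025 bases for their longest coding transcripts.

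**Figure D4:**
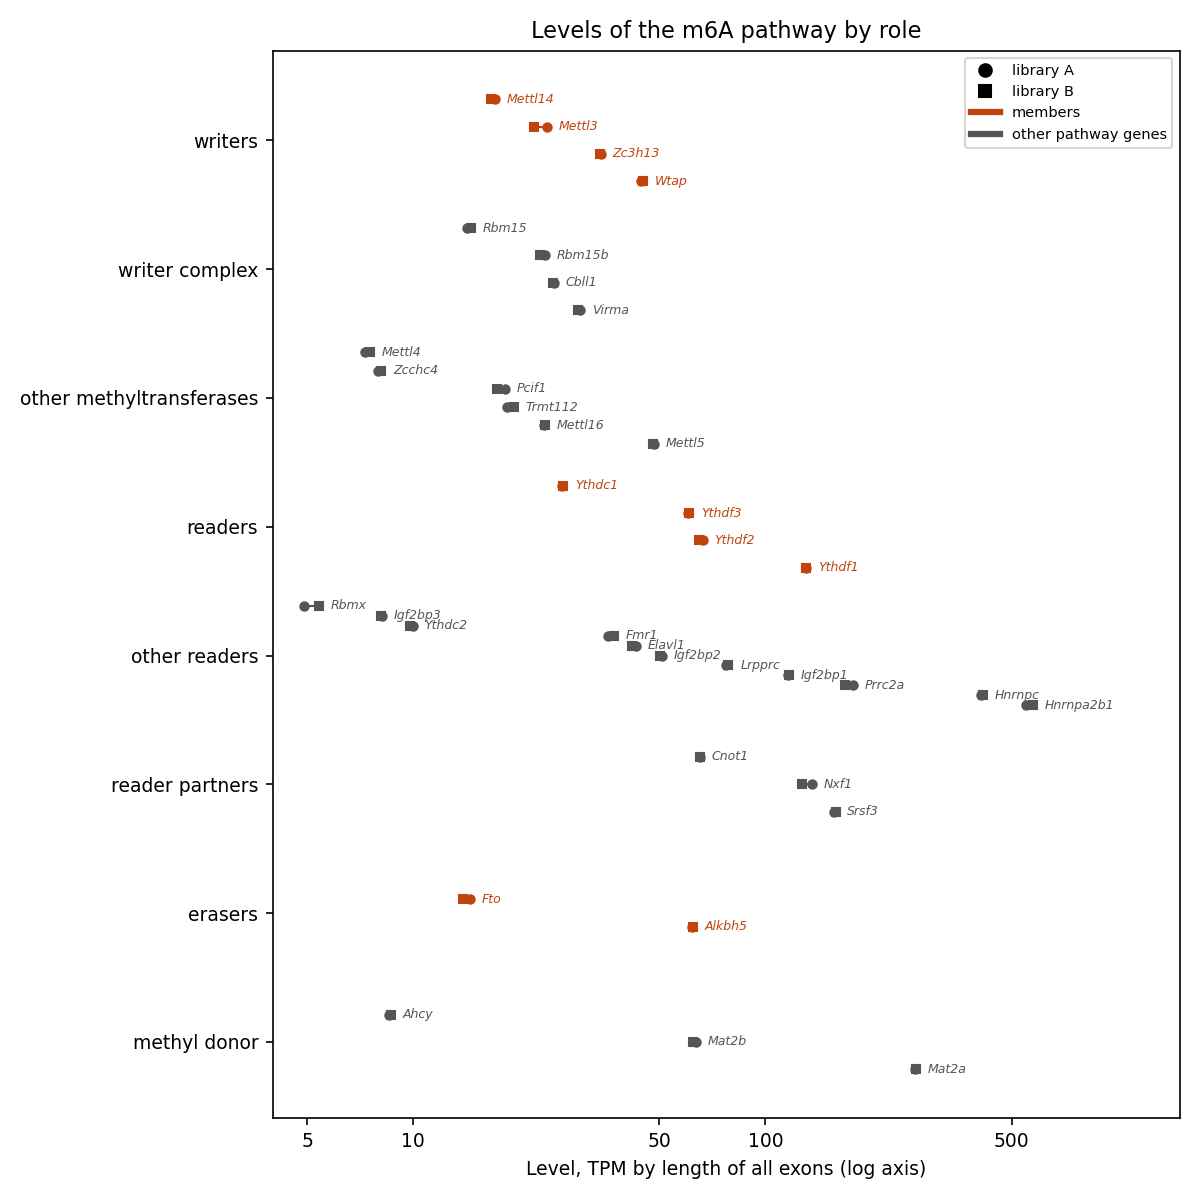
Level in TPM by all exons, on a log axis, of the 10 members (red) and 27 further genes of the m6A pathway (grey) by role; circles are library A and squares library B. Most pairs of symbols lie on top of each other, and Hnrnpa2b1 (562 TPM) and Hnrnpc (412 TPM) are the highest.

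In the comparison of the libraries 3 of the 27 further genes were called, 1 higher in B and 2 higher in A, beside 2.29% of all genes. A test on counting error alone calls smaller differences where reads are many. The called genes Hnrnpa2b1, Prrc2a and Nxf1 had 99783, 35171 and 15508 reads over both libraries. The share called among genes of like depth was not taken, so these counts do not show an excess. Hnrnpa2b1 had a log2 ratio of 0.085 with an SE of 0.0093 (adjusted p = 9.8e-17, exact binomial, Benjamini-Hochberg), and 0.055 (adjusted p = 1.5e-06) once the GC trend was taken out. Prrc2a, with 60.6% GC, had -0.063 (adjusted p = 0.0052) and changed sign to 0.020 (adjusted p = 0.81) in the same exact test after removal of the trend. Nxf1 had -0.081 (adjusted p = 0.033) and -0.079 (adjusted p = 0.082) in these 2 exact tests. None of the 3 was called by edgeR under the assumed variation, but that setting called 1 gene of all 18198, so this says nothing about these genes.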

How the data were processed

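Each library has its own deposited file with 1 count per Ensembl gene ID, per the file headers; the values are whole numbers with unequal sums, read here as raw read counts. The libraries were not pooled. The genome build mm10, the tool featureCounts 1.4.5-p1 and the tool STAR 2.4.2a are named without roles, per the submitters' processing notes; RNA came from Trizol extraction and TruSeq libraries of a reverse-stranded protocol, per the labels' protocols. The strand setting, the annotation and the treatment of reads with several matches are stated in no source used here. Names, positions and exon lengths came from GENCODE M21 (GRCm38, the build of mm10), which matched 97.5% of 43629 IDs. The annotation behind the counts may differ from M21, so TPM rests on lengths that need not be those counted.

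Counts were scaled by TMM (edgeR 4.0.16, R 4.3.3); other steps used Python 3.11.15 with scipy 1.17.1. Log2 ratios add 0.5 reads to each count. A further list of cell type markers is not reported here. Total depth was 29264632 (A) and 42322129 (B) counts. The members, lists and tests were chosen with earlier results of these data known. By rule the text names the 10 members, in each further group its 3 highest and its lowest gene (all genes in groups of 4 or fewer), called genes, Drosha and Dgcr8; pseudogenes and overlapping genes were named for shared sequence. No gene of like pattern was named, since 2 libraries of 1 group give no profile. The alternatives were scaling by DESeq2 1.42.0 or by total counts, filters of 1 and 50 reads, subtraction of the median log2 ratio in 20 bins of GC content, the exact test of edgeR at an assumed variation of 0.1, other gene lengths, thresholds of 0.5 and 5 CPM, leaving mitochondrial genes out of the totals, and single libraries.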

Additional observations from a re-analysis of the deposited data

How the results depend on the processing

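No setting called any of the 10 members, and none of the thresholds of 0.5 or 5 CPM took a member out of the expressed genes. Calls over all genes went from 417 to 139 with the trend with GC content removed and to 1 in the exact test of edgeR at an assumed variation of 0.1, and calls among the 27 further pathway genes from 3 to 1 and 0. DESeq2 size factors gave 4 calls among these 27; total counts, DESeq2 size factors and the other filters gave 360 to 441 calls over all genes. Removing the trend turned the sign of the uncalled log2 ratios of Wtap (-0.0039), Ythdf3 (-0.015) and Ythdc1 (-0.011) and of the called one of Prrc2a (0.020).

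Levels and their ratios moved with the choice of gene length. The median of the members was 39.3 TPM by all exons, 49.0 by the longest transcript, 45.5 by the median coding transcript and 41.9 in totals without mitochondrial genes, and 39.2 to 39.5 in single libraries. In the order longest transcript, median coding transcript and read counts without length, the ratio of Mettl3 to Mettl14 (1.37 by all exons) was 3.11, 5.01 and 0.934, that of Wtap to Mettl3 (1.94) was 1.62, 1.18 and 2.39, that of Alkbh5 to Fto (4.38) was 1.65, 1.29 and 2.01, that of Ythdf2 to Ythdf1 (0.503) was 0.535, 1.65 and 0.693, that of Ythdf2 to Ythdf3 (1.09) was 1.14, 4.78 and 0.926, and that of Ythdc1 to the Ythdf sum (0.103) was 0.211, 0.197 and 0.342. The ratio of Zc3h13 to Wtap (0.762) was 0.397 and 0.164 with the first 2 lengths. The median coding transcript has 647.5 bases for Mettl3 and 955 for Ythdf2, the latter less than its coding sequence of 1737 bases. Ratios that include these genes at that length rest on such short transcripts. Leaving out a library leaves nothing to compare it with, so the comparison of the libraries was not run that way. No paired analysis was possible because there is 1 group.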

Other observations

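Several genes around the m6A pathway share sequence with other annotated genes or pseudogenes that had reads of their own; the pairs were chosen after their values were seen. Ahcy, which is known as an abundant housekeeping enzyme, had 262 reads in A and 386 in B, while Gm4737 (chromosome 16, 46152985 to 46155077), the annotated gene with which it shares most windows, had 5940 and 8517, or 22.7 and 22.1 times as many. Of the windows of 50 bases of Ahcy 77.0% occur in another annotated gene. Trmt112 shares 68.7% of its windows and had 249 and 379 reads, against 575 and 729 on the pseudogene Trmt112-ps2. Srsf3 shares 31.5%; Gm12355, which shares most of these windows, had 609 and 973 reads, and the pseudogene Gm9761 had 3040 and 4482. Hnrnpc shares 12.3%, and Gm12696 had 2073 and 2950 reads. Rbmx, the lowest of the pathway genes at 232 and 373 reads, shares 0.981% of its windows; among the genes that hold them Gm7324 had 125 and 187 reads and Rbmxl1 3032 and 4485. The part that shared sequence plays in any of these counts was not tested.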
